A study of Mus musculus with 12 samples.

Results

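Fibroblast growth factors (FGFs) are signaling proteins that cells release to instruct their neighbors. The present account covers 9 genes for secreted FGF ligands, *Fgf1*, *Fgf2*, *Fgf3*, *Fgf7*, *Fgf8*, *Fgf9*, *Fgf10*, *Fgf15* and *Fgf18*, out of 770 genes measured. They were taken by gene symbol from the 18 secreted FGFs of the panel. They were chosen by their signals in all 12 samples, read over the 3 groups. The levels and differences of these 9 genes are therefore given as a description, with no p-value printed for any of them. Calls by limma among them are counted and named beside the share of all genes. How these calls change with the processing is also given, but nothing is read from them.

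RNA was counted with the mouse PanCancer Pathways panel of the nCounter platform, which hybridizes a bar-coded probe to each transcript and reads out digital counts without amplification. *RBS* lesions were eyes of E18.5 embryos with the genotype *Rax-creERT2::Ctnnb1(ex3)Fl/+SmoM2Fl/+* (*n* = 5), exposed to tamoxifen at E8.5. Control eyes, also from E18.5 embryos, carried both floxed alleles, *Ctnnb1(ex3)Fl/+SmoM2Fl/+*, but no Cre driver (*n* = 4). For its protein measurements the study took control eyes from littermates, but tamoxifen exposure is not stated separately for the control eyes used for RNA. Shh-MBs were hindbrain tumors of 14 day old *hGFAP-cre::SmoM2Fl/+* mice (*n* = 3), a murine model of medulloblastoma driven by Shh signaling. Where Cre acts, *Ctnnb1* loses exon 3, so that beta-Catenin escapes degradation, and SmoM2 is switched on, a constantly active form of the Shh receptor component Smoothened. In *RBS* mice, Cre is made under the *Rax* promoter, active in early retinal precursors, so each lesion also holds eye tissue in which no recombination took place. Each sample came from 1 animal. Shh-MBs differ from the eyes in organ, age and genotype, and these cannot be told apart.

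Secreted FGFs bind receptor tyrosine kinases of the FGFR family together with heparan sulfate, and the adaptors FRS2, SHC, GRB2 and SOS carry the signal to RAS and the MAP kinases. Sprouty proteins and the dual-specificity phosphatases are induced by the pathway and dampen it. In the embryonic eye, *Fgf3*, *Fgf8*, *Fgf9* and *Fgf15* are known as genes of the optic vesicle and neural retina, with FGF9 favoring neural over pigmented fate, while FGF7 and FGF10 are made by mesenchyme and act on neighboring epithelium such as the lacrimal gland bud.

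Values are given as linear normalized signal. On this scale 1 count corresponded to between 0.810 and 1.64 signal units, depending on the sample, and the depth lay between 335351 and 716967 counts above background per sample. Between 52 and 123 of the 770 genes sat at their sample's lowest value, the floor that stands for no signal above background. Of the 9 ligands, 6 were at the floor in Shh-MB 2, 3 in Shh-MB 1 and 1 each in Shh-MB 3, *RBS* lesion 1, *RBS* lesion 5 and control eye 4. The other samples had none there. Since whole lesions, eyes and tumors were lysed, fewer cells of a type and less RNA per cell cannot be told apart. Of 11 markers set for retinal progenitors only 4 were on the panel (*Hes1*, *Hes5*, *Notch1* and *Sox9*), and their summed signal was 3861 to 5679 in control eyes, 2829.96 to 3703 in the lesions and 915 to 1100.2 in Shh-MBs. Most of this sum was *Hes5*. *Rax*, *Pax6* and *Sox2* were not measured, nor was any marker set for photoreceptors, lens or pigment epithelium, so the labels of eye tissue could be checked only in part.

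Promoter sequences are shown for *Fgf3* and *Fgf9*, which had less signal in *RBS* lesions than in normal eyes, and for *Fgf7*, because the alleles of *RBS* mice act on beta-Catenin, the partner of TCF/LEF factors, and on Smoothened, which acts through GLI factors. RefSeq promoter windows (build GRCm38.p6) were used for 6 of the 9 ligands, *Fgf2*, *Fgf3*, *Fgf7*, *Fgf9*, *Fgf10* and *Fgf18*. Promoters of *Fgf1*, *Fgf8* and *Fgf15* were not searched, so nothing is said about them. Windows of 300 bases, 250 before and 50 after the transcription start, were searched on both strands for the TCF/LEF letters CTTTGA and CTTTGT, which share CTTTG, and for the GLI core letters ACCACCC. The 250 bases before the start are printed, 5′ to 3′ on the gene's strand, with a match in capitals. All 3 lie on the plus strand, *Fgf3* at chr7:144838362-144838611, *Fgf7* at chr2:126034408-126034657 and *Fgf9* at chr14:58072436-58072685.
Fgf3: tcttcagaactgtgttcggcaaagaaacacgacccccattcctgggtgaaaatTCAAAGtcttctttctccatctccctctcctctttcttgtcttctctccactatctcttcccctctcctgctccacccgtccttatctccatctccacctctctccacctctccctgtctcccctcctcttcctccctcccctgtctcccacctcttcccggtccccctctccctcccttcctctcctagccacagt
Fgf7: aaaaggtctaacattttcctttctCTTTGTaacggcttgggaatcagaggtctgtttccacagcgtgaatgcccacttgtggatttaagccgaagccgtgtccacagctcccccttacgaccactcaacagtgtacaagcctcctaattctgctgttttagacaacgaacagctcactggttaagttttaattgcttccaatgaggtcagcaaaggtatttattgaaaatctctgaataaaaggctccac
Fgf9: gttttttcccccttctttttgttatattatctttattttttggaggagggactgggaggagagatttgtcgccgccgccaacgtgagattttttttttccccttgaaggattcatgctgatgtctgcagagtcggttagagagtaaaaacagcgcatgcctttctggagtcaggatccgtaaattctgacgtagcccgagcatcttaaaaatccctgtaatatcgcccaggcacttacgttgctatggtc
The *Fgf3* window held CTTTGA once, on its minus strand, with its first printed base 197 bases before the start. The *Fgf7* window held CTTTGT once, 226 bases before the start. Neither TCF/LEF form was found in the windows of *Fgf2*, *Fgf9*, *Fgf10* and *Fgf18*, and the GLI letters were in none of the 6. Among all 32851 promoter windows of this length, 31.2% held 1 or both TCF/LEF forms and 4.61% the GLI letters, so a match in 2 of 6 windows describes these letters only.

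**Figure D1:**
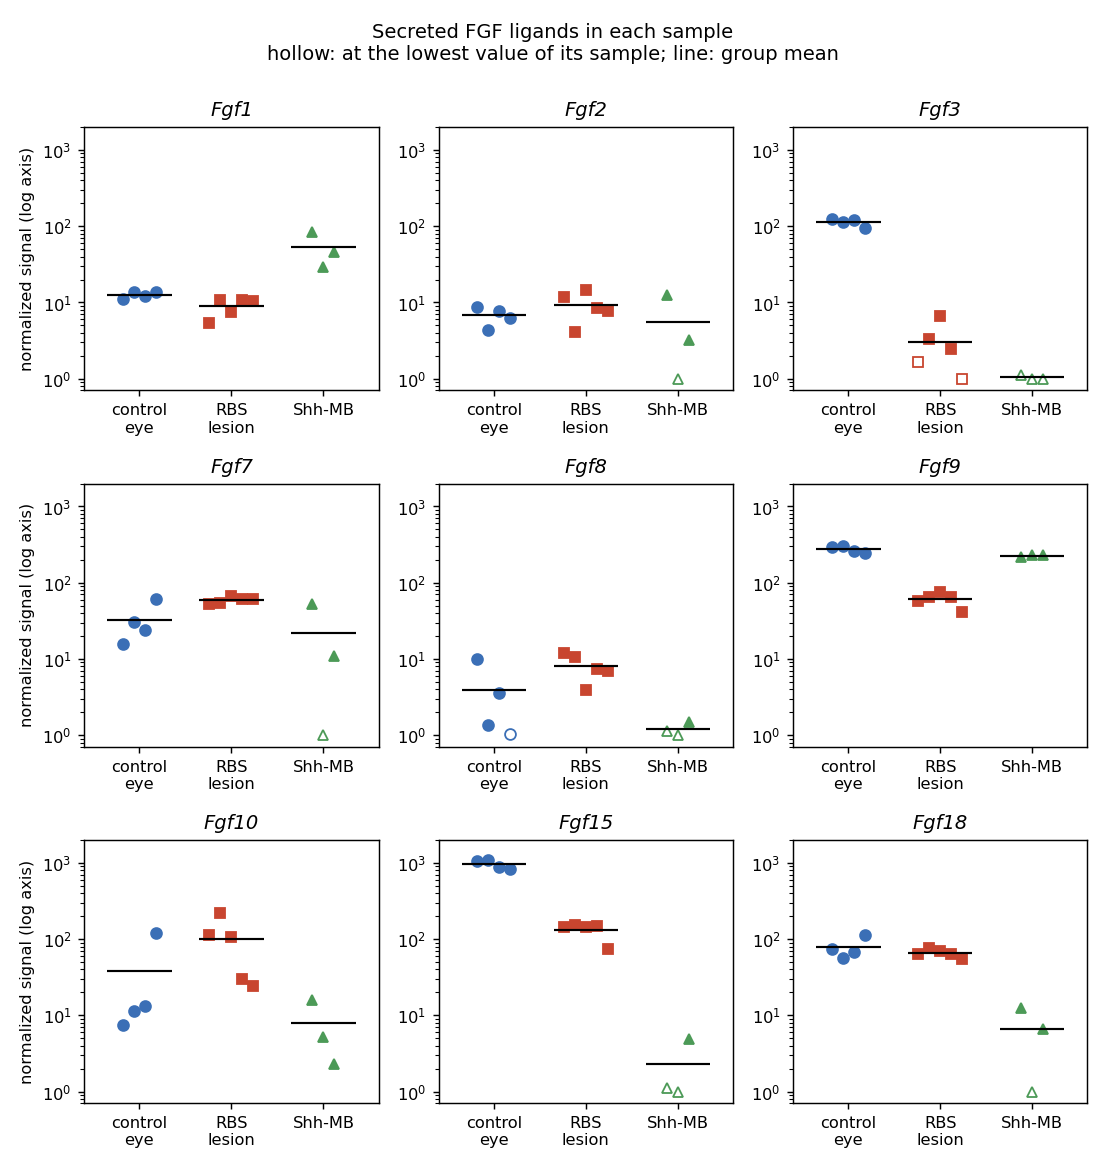
Normalized signal of each ligand (vertical, log axis) in the 4 control eyes, 5 *RBS* lesions and 3 Shh-MBs, with 1 point per sample, the group mean as a line and hollow points at the lowest value of the sample. All *RBS* lesions lie below all control eyes for *Fgf3*, *Fgf9* and *Fgf15*, and most ligands are near the floor in Shh-MBs.

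The ligands known from the neural retina were compared first, to see how *RBS* lesions differ from the normal eye of the same age. *Fgf3*, *Fgf9* and *Fgf15* were lower by several-fold in the lesions than in normal eyes, with groups that did not overlap in any of the 3, as was the case in this direction for 15.8% of all 770 genes. *Fgf8* was close to the floor in all groups. *Fgf15*, the mouse counterpart of human FGF19 and an FGF of the retina and brain in the embryo, measured 1061, 1094, 879.8 and 835 in control eyes 1 to 4. In *RBS* lesions 1 to 5 its signal was 145, 152, 146, 149.5 and 74.6, and in Shh-MBs 1 to 3 it was 1.12, 1.00 and 4.87, the first 2 of these at the floor. All 3 groups were apart, in the order control eyes, *RBS* lesions, Shh-MBs, and *RBS* lesion 5 lay below the other 4 lesions. Mean signals of *Fgf15* were 968 ± 129 (SD, *n* = 4) for control eyes and 133 ± 33.0 (SD, *n* = 5) for *RBS* lesions, which is 7.25-fold lower and a log2 difference of -2.89 (standard error 0.221). No fold is given for *Fgf15* against Shh-MBs, since 2 of 3 tumors were at the floor.

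*Fgf9*, which encodes a ligand that favors neural retina, had signals of 292, 303, 262 and 247 in control eyes, and of 57.9, 65.7, 76.2, 63.9 and 41.6 in *RBS* lesions. Shh-MBs measured 215, 232 and 234 for *Fgf9*, close to one another and between the other groups. *RBS* lesions were thus the lowest group for *Fgf9*, below both the control eyes and the tumors in every sample. The mean was 276 ± 26.1 (SD, *n* = 4) in control eyes, 61.1 ± 12.7 (SD, *n* = 5) in the lesions and 227 ± 10.2 (SD, *n* = 3) in Shh-MBs. *RBS* lesions were 4.52-fold below control eyes (log2 difference -2.18, standard error 0.166) and 3.72-fold below Shh-MBs (log2 difference -1.90, standard error 0.186). For Shh-MBs against control eyes the log2 difference of *Fgf9* was only -0.28 (standard error 0.109), and it was 0.39 when samples were centered on their median and 0.066 after quantile normalization, so that the order of these neighboring groups depends on the scaling.

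*Fgf3*, an early FGF of the optic stalk, otic region and hindbrain, was at 125, 114, 119 and 94.9 in control eyes. In *RBS* lesions its signal was 1.64, 3.35, 6.54, 2.46 and 1.00, of which *RBS* lesions 1 and 5 were at the floor, and all 3 Shh-MBs were at the floor (1.12, 1.00 and 1.00). No *RBS* lesion exceeded 7.42 counts of *Fgf3* above background. The mean was 113 ± 13.1 (SD, *n* = 4) in control eyes and 3.00 ± 2.17 (SD, *n* = 5) in *RBS* lesions, too near the floor for an exact fold. The log2 difference of *Fgf3* was -4.98 (standard error 0.341) with 1 added to each signal. It was -3.92 with 5 added and -2.44 with values under 20 set to 20, and the lesions' values rest on a few counts. Between *RBS* lesions and Shh-MBs the ranges of *Fgf3* overlapped, and no fold is given against a group that is wholly at the floor.

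*Fgf8*, the ligand of the midbrain-hindbrain organizer and of the early retina, was low throughout. Its signal was 9.92, 1.38, 3.53 and 1.04 in control eyes, with control eye 4 at the floor, and 11.95, 10.6, 3.90, 7.28 and 6.89 in *RBS* lesions. Control eye 1 overlapped the lesions and the other 3 control eyes lay below them, with a log2 difference of 1.13 (standard error 0.499). Shh-MBs had 1.12, 1.00 and 1.48 of *Fgf8*, the first 2 at the floor, and all 3 were below every *RBS* lesion. With every value under 20 set to 20, *Fgf8* showed no difference at all, since no sample reached that level.

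Markers of other cells moved between these groups. Of the retinal progenitor markers above, *Hes1* and *Hes5* were lower in lesions against control eyes, *Sox9* was higher, and the groups overlapped for *Notch1*. The summed signal of 5 of 9 neuron markers on the panel was 555 to 722 in control eyes, 2224 to 2967 in the lesions and 352 to 551 in Shh-MBs. Most of this sum was *Mapt*. Of the 5, 4 were called higher in the lesions against control eyes, and in Shh-MBs against control eyes 3 were called higher and *Mapt* lower, so that the sum and most of its members went opposite ways there. On the panel were also 3 of 6 endothelium markers, with sums of 1789 to 2259 in control eyes, 695 to 988 in the lesions and 129 to 235 in Shh-MBs. Most of this sum was *Kdr*, which was called lower in the lesions against control eyes, while the other 2 were not called and the median log2 difference of the 3 was 0.12. The 3 of 6 blood and immune markers measured summed to 73.7 to 109.6, 151 to 211 and 99.4 to 214. *Zic2*, the 1 of 5 granule precursor markers measured, was 223 to 347, 255 to 385 and 924 to 1142. The part of all these cells in the differences of *Fgf3*, *Fgf9* and *Fgf15* was not tested.

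A different pattern held for ligands known from mesenchyme. *Fgf7* and *Fgf10* had higher means in the lesions, but 1 control eye overlapped the lesions for both. *Fgf7*, also called keratinocyte growth factor, measured 15.8, 30.8, 23.7 and 60.5 in control eyes and 53.0, 53.5, 66.5, 60.3 and 60.9 in *RBS* lesions. The other 3 control eyes were below every lesion, while control eye 4 lay among the lesions. The mean of *Fgf7* was 32.7 ± 19.5 (SD, *n* = 4) in control eyes and 58.8 ± 5.64 (SD, *n* = 5) in *RBS* lesions, 1.80-fold higher, with a log2 difference of 0.99 (standard error 0.319). Shh-MBs were spread from 52.9 in tumor 1 over 10.8 in tumor 3 to the floor at 1.00 in tumor 2. All 3 tumors were below all 5 lesions, although tumor 1 and the lowest lesion were less than 1 unit apart. Without Shh-MB 2 the log2 difference of *Fgf7* between *RBS* lesions and Shh-MBs was 1.24, against 2.46 (standard error 0.884) with it.

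*Fgf10*, the mesenchymal ligand that starts lacrimal gland, lung and limb buds, varied most within the eye groups. Control eyes had signals of 7.57, 11.5, 13.1 and 119, and *RBS* lesions of 112, 224, 105, 30.2 and 24.3. Control eye 4 was above 4 of the 5 lesions, while the other 3 control eyes were below all lesions. The lesions' mean of 99.1 ± 80.7 (SD, *n* = 5) and the control eyes' mean of 37.7 ± 54.1 (SD, *n* = 4) differed by 1.83 on the log2 scale (standard error 0.902). Without control eye 4 this difference of *Fgf10* was 2.68. Shh-MBs had signals of 15.9, 5.22 and 2.33, all below every *RBS* lesion, a log2 difference of 3.38 (standard error 0.827), and overlapping the control eyes. With values under 20 set to 20, the log2 difference between *RBS* lesions and Shh-MBs was 1.80.

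*Fgf18*, a ligand of developing bone and lung, was alike in both eye groups. Its signal was 73.3, 57.1, 68.3 and 114.7 in control eyes and 64.5, 75.4, 70.9, 63.9 and 55.4 in *RBS* lesions. The groups overlapped, with control eye 4 above all lesions, and the log2 difference was -0.20 (standard error 0.192), which became 0.17 when samples were scaled to the same total. Shh-MBs lay far below both, at 12.6, 1.00 and 6.57, with tumor 2 at the floor. The means of *Fgf18* were 66.0 ± 7.62 (SD, *n* = 5) in the lesions and 6.72 ± 5.79 (SD, *n* = 3) in Shh-MBs. The log2 difference between them was 3.50 (standard error 0.535), and it lay between 2.72 and 4.10 with each tumor left out in turn. It was 2.65 after median centering, 2.52 after quantile normalization and 1.67 with values under 20 set to 20.

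Mesenchyme markers were examined beside these ligands. Of 9 markers set, 7 were on the panel (*Col1a1*, *Col1a2*, *Col3a1*, *Col5a1*, *Col5a2*, *Pdgfra* and *Pdgfrb*), and none of them was at the floor throughout a group. Their summed signal was 25546 to 57829 in control eyes, with control eye 4 the highest of all samples, 19843 to 36410 in the lesions and 1475 to 2099 in Shh-MBs. Control eye 4 was thus highest among control eyes in the marker sum as well as in *Fgf7*, *Fgf10* and *Fgf18*. It was also the highest of them in surface epithelium (581 against 377 to 424) and in blood and immune markers (109.6 against 73.7 to 80.7), and the lowest in the sums of retinal progenitor (3861), neuron (555) and granule precursor (223) markers. The sum was mostly collagen, and the markers did not move alike. *Col1a1* and *Col1a2* were called lower in *RBS* lesions against control eyes, and the other 5 were not called. *Pdgfra*, a receptor of mesenchymal cells and glial precursors, measured 349, 233, 299 and 514 in control eyes and 444 to 527 in *RBS* lesions (log2 difference 0.53, limma adjusted *p* = 0.0565). As for *Fgf7*, the lesions were above 3 control eyes and control eye 4 lay among them. In Shh-MBs *Pdgfra* was at 769.5 to 1101, above both eye groups, against the direction of the sum. Surface epithelium markers, with 9 of 12 on the panel, summed to 377 to 581 in control eyes, 615 to 1034 in the lesions and 17.0 to 87.6 in Shh-MBs, where 2 of the 9 were at the floor in every tumor. The part of these cells in the levels of the ligands was not tested.

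**Figure D2:**
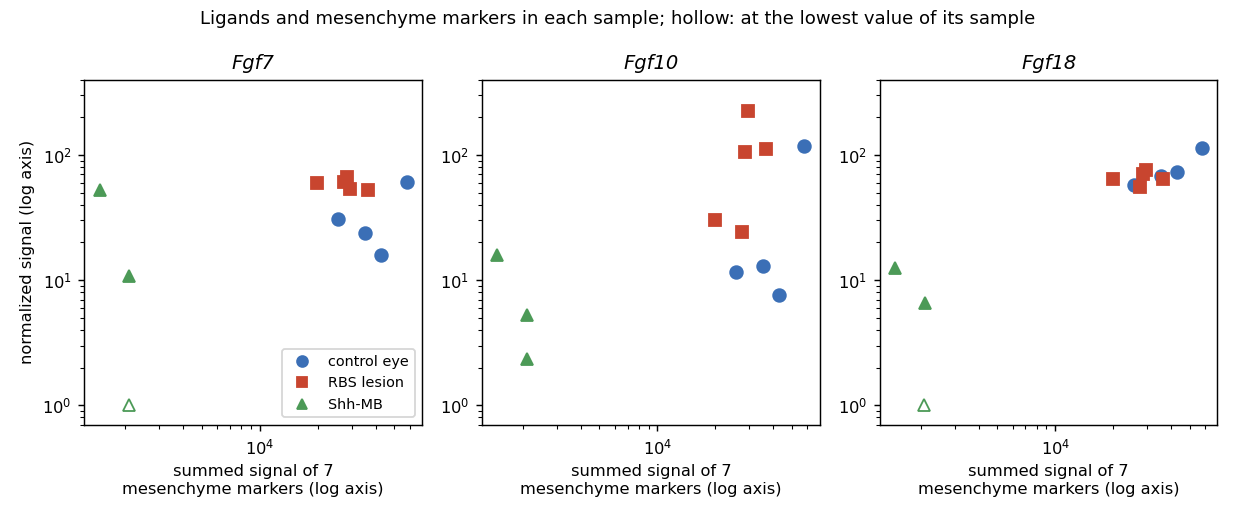
Signal of *Fgf7*, *Fgf10* and *Fgf18* (vertical, log axis) against the summed signal of the 7 mesenchyme markers (horizontal, log axis), with 1 point per sample and hollow points at the floor. Shh-MBs lie at the left with 1475 to 2099 units of marker signal, and the eye groups at the right between 19843 and 57829.

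The remaining ligands, *Fgf1* and *Fgf2*, lack a classical signal peptide and act broadly. *Fgf1*, which can bind all FGF receptors, was the only one of the 9 with its highest level in Shh-MBs. It measured 84.2, 29.6 and 46.4 there, 11.1, 13.5, 12.03 and 13.6 in control eyes and 5.39, 10.6, 7.42, 10.9 and 10.5 in *RBS* lesions. The 3 groups did not overlap, although *RBS* lesion 4 and control eye 1 were separated by less than 1 unit. Mean signals of *Fgf1* were 53.4 ± 28.0 (SD, *n* = 3) in Shh-MBs and 12.6 ± 1.23 (SD, *n* = 4) in control eyes, 4.25-fold apart. The log2 difference of *Fgf1* between *RBS* lesions and control eyes was -0.48 (standard error 0.196). It was -0.14 with equal totals, -0.66 after median centering and -0.69 after quantile normalization, and no sample of either group reached 20. *Fgf2* had signals of 8.75, 4.42, 7.78 and 6.34 in control eyes, 11.95, 4.16, 14.5, 8.49 and 7.80 in the lesions and 12.6, 1.00 and 3.18 in Shh-MBs. No pair of groups was apart for *Fgf2*, and no order of its levels held beyond their spread.

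Counted over all 9 ligands, limma (Benjamini-Hochberg adjusted *p* under 0.05 over all 770 genes) called 1 higher (*Fgf7*) and 3 lower (*Fgf3*, *Fgf9* and *Fgf15*) in the lesions against control eyes. In this comparison 33.0% of all 770 genes were called higher, 18.2% lower and 51.2% in either direction. Groups did not overlap for 4 ligands, all lower in *RBS* lesions, against 43.4% of all genes in either direction and 15.8% lower. For *RBS* lesions against Shh-MBs, 5 ligands were called higher (*Fgf7*, *Fgf8*, *Fgf10*, *Fgf15* and *Fgf18*) and 2 lower (*Fgf1* and *Fgf9*), where 48.1% of all genes were called higher, 12.7% lower and 60.8% in all, and all 7 were apart, as were 59.9% of genes (47.0% higher and 12.9% lower). For Shh-MBs against control eyes, 1 ligand was called higher (*Fgf1*) and 3 lower (*Fgf3*, *Fgf15* and *Fgf18*), where 9.61% of all genes were called higher, 31.4% lower and 41.0% in all. Here 5 ligands were apart, these 4 and *Fgf9*, as were 48.2% of genes (12.2% higher and 36.0% lower). Because the ligands were picked with these contrasts known, nothing is read from their counts. The comparisons also share samples in pairs, so they are not independent of each other. The *Fgf7* call against control eyes was lost when *RBS* lesion 3, 4 or 5 or control eye 1, 2 or 3 was left out, when all 12 samples were fitted together, after median centering or quantile normalization, with the replicate number as a block, and with the methods' t-test under either adjustment. Between *RBS* lesions and Shh-MBs, median centering lost the call of *Fgf7*, quantile normalization those of *Fgf7* and *Fgf10*, and setting values under 20 to 20 those of *Fgf8* and *Fgf10*. The median log2 difference of the 9 ligands was -0.20 in *RBS* lesions against control eyes (0.17 over all genes), 1.98 in *RBS* lesions against Shh-MBs (0.53) and -1.47 in Shh-MBs against control eyes (-0.22).

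**Figure D3:**
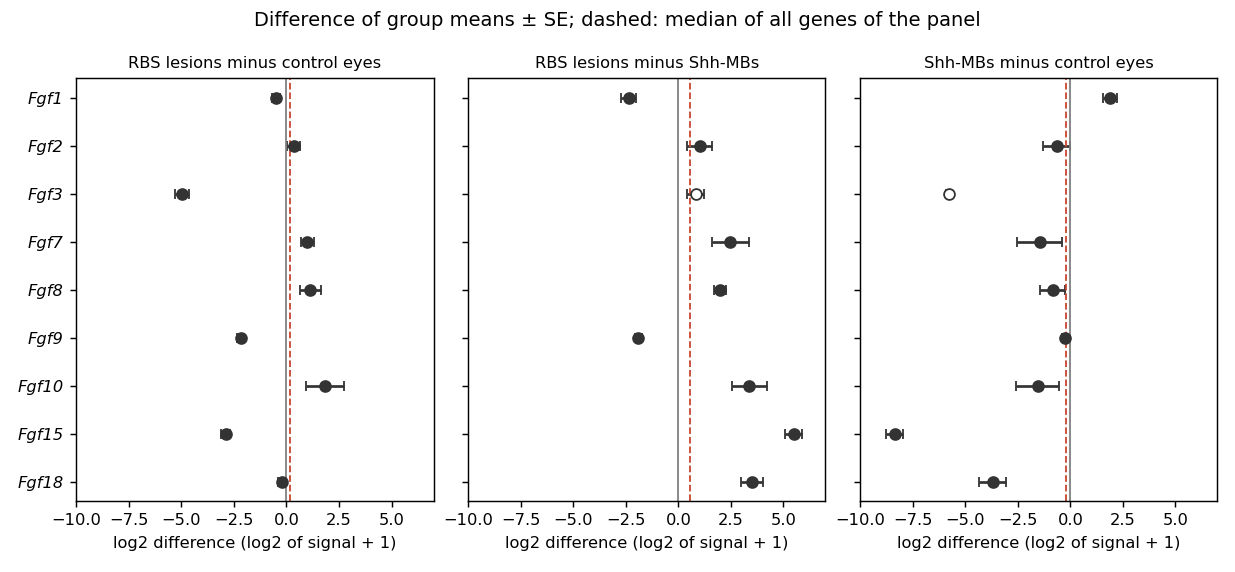
Log2 difference of each ligand in the 3 comparisons (horizontal, log2 of signal plus 1), with the standard error as a bar, the median of all 770 genes as a dashed line and hollow points where 1 group was wholly at the floor. *Fgf3*, *Fgf9* and *Fgf15* lie at -4.98, -2.18 and -2.89 in the left panel.

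How many genes were higher or lower depended on the scaling of the samples. In *RBS* lesions against control eyes, 254 genes of the panel were called higher and 140 lower, which became 177 and 177 with samples centered on their median, 187 and 179 after quantile normalization, and 393 and 81 with equal totals. Against Shh-MBs, 370 and 98 genes became 181 and 319, 204 and 234, and 423 and 85. In Shh-MBs against control eyes, 74 higher and 242 lower became 311 and 139, 221 and 147, and 127 and 189. The median difference of all genes moved accordingly, in *RBS* lesions against control eyes from 0.17 to -0.0075, 0.0033 and 0.52, against Shh-MBs from 0.53 to -0.32, -0.097 and 0.67, and in Shh-MBs against control eyes from -0.22 to 0.44, 0.17 and -0.031. *Fgf3*, *Fgf9* and *Fgf15* stayed below control eyes in the lesions' mean under all 3 scalings.

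*Fgf3* and *Fgf15* are neighbors on chromosome 7, where the reference annotation (RefSeq, GRCm38.p6) gives the order *Fgf3*, *Fgf4*, *Fgf15*, *LTO1* and *Ccnd1* for protein-coding genes. All but *LTO1* were on the panel. *Ccnd1*, which encodes cyclin D1, the cyclin that drives retinal progenitors through G1, measured 14029.8, 15077, 15146 and 11228 in control eyes, 2206, 1877, 2236, 1555 and 1406 in the lesions and 2419, 2162 and 2018 in Shh-MBs. Control eyes were above every other sample, and lesions and tumors overlapped. *Ccnd1* fell by 2.91 on the log2 scale in *RBS* lesions against control eyes (standard error 0.169, limma adjusted *p* = 3.48e-06) and did not pass the threshold against Shh-MBs (log2 difference -0.27, adjusted *p* = 0.236). *Fgf4*, between *Fgf3* and *Fgf15*, was low in all samples, with signals of 4.25 to 8.84 in control eyes, 1.64 to 11.5 in the lesions and 1.00 to 4.75 in Shh-MBs, and its log2 difference of -0.57 between *RBS* lesions and control eyes did not pass (adjusted *p* = 0.285). *Fgf3*, *Fgf15* and *Ccnd1* thus had lower levels in *RBS* lesions than in control eyes, where 18.2% of all 770 genes were called lower. *Fgf4* had too little signal to compare. Since *Fgf3* and *Fgf15* were chosen with these values known, nothing is read about the stretch as a whole. Near other ligands, *Npm1*, next to *Fgf18* on chromosome 11, had a log2 difference of -0.18 between *RBS* lesions and control eyes (adjusted *p* = 0.0710), and *Fbxw11*, 1 gene further, rose by 0.51 (adjusted *p* = 9.96e-04). Between *Fgf2* and the Sprouty gene *Spry1*, and between *Fgf1* and *Spry4*, the annotation gives 2 protein-coding genes each.

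**Figure D4:**
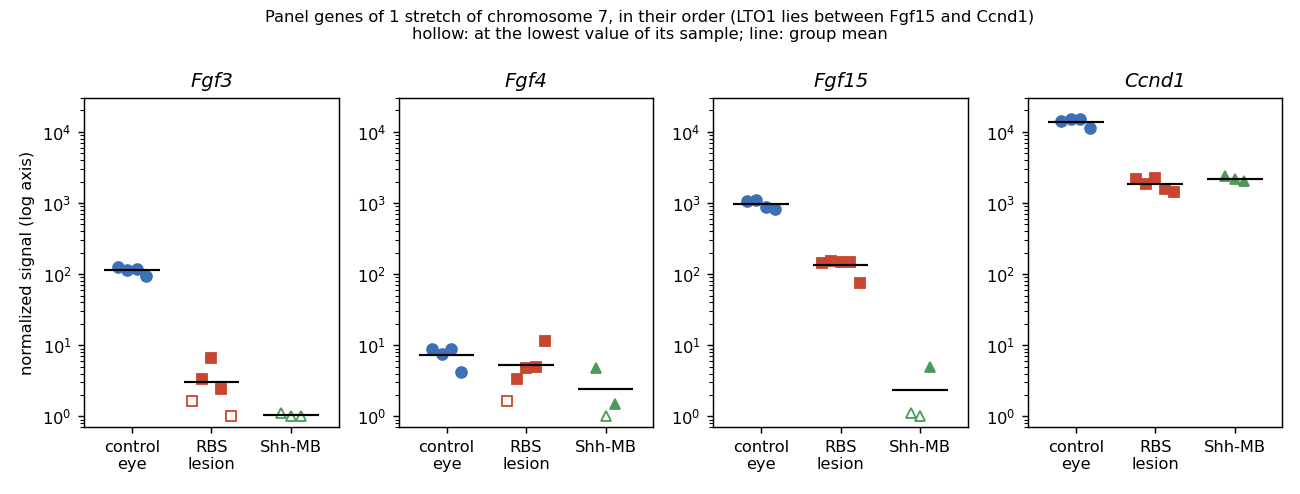
Normalized signal (vertical, log axis) of the 4 panel genes from 1 stretch of chromosome 7 in their order, with 1 point per sample, the group mean as a line and hollow points at the floor. *Fgf3*, *Fgf15* and *Ccnd1* are highest in the 4 control eyes, and *Fgf4* stays at or under 11.5 in all samples.

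The other secreted FGFs had little signal. Of the 9 that were not chosen (*Fgf4*, *Fgf5*, *Fgf6*, *Fgf16*, *Fgf17*, *Fgf20*, *Fgf21*, *Fgf22* and *Fgf23*), only *Fgf5* had a group mean above 20 units, and no single value of the rest exceeded 11.5. *Fgf5*, a regulator of the hair cycle, had signals of 15.9, 26.8 and 35.4 in Shh-MBs, against 4.59 to 14.7 in control eyes and 1.00 to 8.67 in *RBS* lesions, 3 of which were at the floor. It was higher in Shh-MBs than in control eyes (log2 difference 1.41, adjusted *p* = 0.0304). Of these 9 genes, 1 was called in *RBS* lesions against control eyes, beside 51.2% of all 770 genes. This was *Fgf17*, higher at a group mean of 4.48 against 1.79 and thus near the floor. In *RBS* lesions against Shh-MBs 1 was called higher and 1 lower, beside 60.8% of all genes. Shh-MBs against control eyes also had 1 higher, *Fgf5*, and 1 lower, beside 41.0%. The 4 FGF homologous factors, *Fgf11* to *Fgf14*, share the family name but are not secreted and act on sodium channels of neurons. *Fgf13* and *Fgf14* rose in *RBS* lesions against control eyes, *Fgf14* from 56.3 ± 12.2 (SD, *n* = 4) to 272 ± 18.8 (SD, *n* = 5) with an adjusted *p* of 5.14e-06, and *Fgf12* fell by 0.44 (adjusted *p* = 0.0208), a call lost with equal totals. The neuron markers above rose beside *Fgf13* and *Fgf14*, with 4 of 5 called higher in the same comparison, and their part in these differences was not tested.

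Receptors decide which ligands a cell can read, and the 4 on the panel differed between groups. *Fgfr3* and *Fgfr1* rose in *RBS* lesions against control eyes, while *Fgfr2* and *Fgfr4* did not pass the threshold. *Fgfr3*, whose product binds FGF1 and FGF9 among others, measured 255, 90.6, 213 and 210.5 in control eyes, 532, 555, 599, 975 and 687 in the lesions and 278, 83.0 and 96.5 in Shh-MBs. Every lesion was above every other sample, by 1.86 on the log2 scale against control eyes (standard error 0.310, limma adjusted *p* = 9.74e-04) and by 2.31 against Shh-MBs (standard error 0.401, adjusted *p* = 0.00123). *Fgfr1* had signals of 453, 349, 385 and 528 in control eyes, 757, 779.7, 742, 784 and 741 in the lesions and 217, 259 and 289 in Shh-MBs. The groups were all apart, and *RBS* lesions exceeded control eyes by 0.84 (standard error 0.122, adjusted *p* = 4.39e-04) and Shh-MBs by 1.58 (standard error 0.111, adjusted *p* = 1.12e-05).

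*Fgfr2*, whose epithelial splice form is the receptor for FGF7 and FGF10, had similar signals in both eye groups, 138, 107, 122 and 149 in control eyes and 151, 119.9, 147, 171 and 178 in *RBS* lesions. Its log2 difference of 0.25 (standard error 0.144) did not pass (adjusted *p* = 0.191), except with equal totals (0.62, adjusted *p* = 0.00671). Which splice forms the probe detects is not given in the sources used here. Shh-MBs were lower for *Fgfr2*, at 78.6, 29.6 and 56.6, by 1.56 against *RBS* lesions (adjusted *p* = 0.00193). *Fgfr4* set the tumors apart in the other direction. It measured 164, 119 and 128 in Shh-MBs, 18.1, 12.5, 18.4 and 27.2 in control eyes and 30.0, 12.3, 17.1, 12.1 and 13.3 in *RBS* lesions. Shh-MBs exceeded *RBS* lesions 8.06-fold (log2 difference -3.01 for lesions against tumors, adjusted *p* = 5.77e-05) and control eyes 7.17-fold (log2 difference 2.81, adjusted *p* = 1.91e-04).

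Of 10 adaptors and 8 feedback and target genes on the panel, the adaptors mostly rose and the feedback genes were split. In *RBS* lesions against control eyes, 6 adaptors rose (*Grb2*, *Sos1*, *Sos2*, *Shc3*, *Ptpn11* and *Cbl*) and *Shc1* fell, and among feedback and target genes 2 rose (*Dusp4* and *Spry1*) and 4 fell (*Spry2*, *Dusp5*, *Dusp6* and *Etv4*). With the receptors this made 10 of 22 genes higher and 5 lower, beside 33.0% and 18.2% of all genes. Median centering and quantile normalization each gave 8 higher and 6 lower, without the calls of *Ptpn11* and *Spry1*, and equal totals gave 14 and 2, without those of *Shc1*, *Dusp6* and *Etv4*. The median log2 difference was 0.43 for adaptors and -0.40 for feedback and target genes, against 0.17 over all genes.

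*Shc3*, a SHC adaptor of neurons, showed the largest of these differences. It measured 67.4, 74.4, 66.2 and 56.3 in control eyes, 296, 398, 354, 377 and 464 in the lesions and 113, 70.8 and 105 in Shh-MBs. Lesions were above all other samples, by 2.49 on the log2 scale against control eyes (standard error 0.140, adjusted *p* = 3.16e-06) and by 1.97 against Shh-MBs (adjusted *p* = 6.24e-05). The part of neurons, whose markers were higher in lesions as given above, was not tested. *Sos1*, an exchange factor that loads RAS, had signals of 259.8, 228, 254 and 263 in control eyes, 508, 445, 454, 503 and 497 in the lesions and 295, 259 and 260.2 in Shh-MBs. It rose by 0.93 in lesions against control eyes (adjusted *p* = 3.29e-05) and by 0.82 against Shh-MBs (adjusted *p* = 1.68e-04), and the latter was -0.021 and not called after median centering.

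The phosphatases that switch off MAP kinases went both ways. *Dusp4* was at 563, 670.4, 441 and 503 in control eyes, 993, 2133, 1769, 2171 and 2519 in the lesions and 234, 372 and 451 in Shh-MBs. All lesions exceeded all other samples, by 1.76 on the log2 scale against control eyes (standard error 0.264, adjusted *p* = 5.16e-04) and by 2.42 against Shh-MBs (adjusted *p* = 3.65e-04), with *RBS* lesion 1 the lowest of the 5. *Dusp5* had signals of 61.5, 69.3, 67.3 and 43.8 in control eyes, 41.5, 30.9, 25.9, 38.6 and 30.7 in the lesions and 268, 222 and 155 in Shh-MBs. Lesions were below all other samples for *Dusp5*, by 0.83 against control eyes (log2 difference -0.83, adjusted *p* = 0.00403) and further against Shh-MBs (log2 difference -2.63, adjusted *p* = 2.44e-05).

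Against Shh-MBs, 12 of the 22 receptors, adaptors, feedback and target genes were higher in *RBS* lesions and 3 lower (48.1% and 12.7% of all genes), which became 7 and 10 after median centering, 10 and 7 after quantile normalization and 14 and 3 with equal totals. In Shh-MBs against control eyes, 3 were higher and 8 lower (9.61% and 31.4% of all genes), which became 9 and 1, 8 and 5, and 5 and 6. For these lists the direction of both comparisons with the tumors hence depended on the scaling. The calls of *Fgfr1*, *Fgfr2*, *Fgfr3* and *Fgfr4* in *RBS* lesions against Shh-MBs were made under all 3 scalings, but with the methods' t-test and Benjamini-Hochberg adjustment those of *Fgfr2* (adjusted *p* = 0.0926) and *Fgfr3* (adjusted *p* = 0.0750) were lost.

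**Figure D5:**
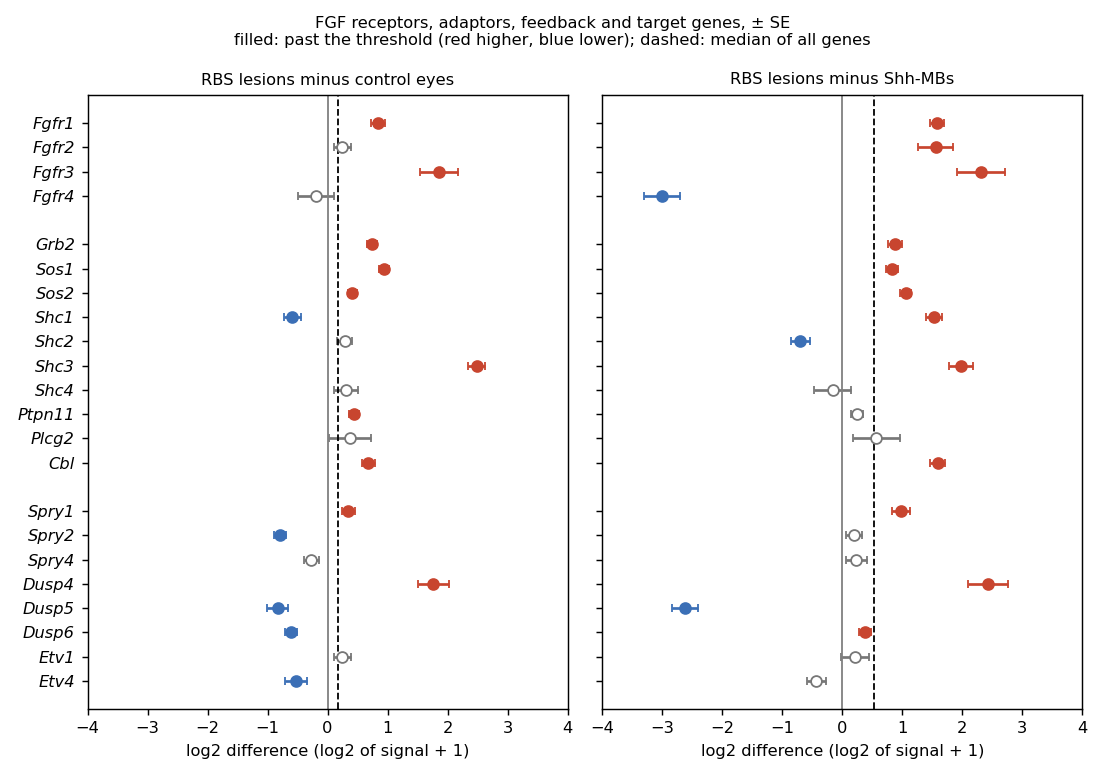
Log2 difference with standard error (horizontal, log2 of signal plus 1) of 4 receptors, 10 adaptors and 8 feedback and target genes in *RBS* lesions against control eyes (left) and against Shh-MBs (right), filled where the limma adjusted *p* passed and with the median of all genes dashed. *Shc3*, *Fgfr3* and *Dusp4* lie farthest to the right against control eyes, at 2.49, 1.86 and 1.76.

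Finally, the genes whose profile over the 12 samples was most like that of each ligand were listed. Likeness was the mean absolute difference of log2 profiles, each centered on its mean, over 12 samples that fall into 3 groups, and it carries no test. *Fgf9* had the closest match, *E2f1*, a transcription factor of S-phase entry, at 0.16, followed by the histone H3 genes *Hist1h3b* (0.25) and *Hist2h3b* (0.26), where the median distance to all genes was 1.21. *Fgf18* was nearest to the collagen gene *Col5a2* (0.34), then *Dll1* and *Bmp4* (both 0.36), against a median of 1.25. *Fgf10* was nearest to *Foxl2* (0.61), a transcription factor of eyelid and periocular mesenchyme, then *Itga8* (0.81) and *Pdgfd* (0.89), and *Pdgfd* was also nearest to *Fgf7* (0.52). For *Fgf1* the nearest gene was *Socs3* (0.35), for *Fgf2* *Mtor* (0.40), for *Fgf8* *Notch2* (0.45), for *Fgf15* *Dkk2* (0.83) and for *Fgf3* *Nupr1* (0.95). Median distances to all genes were 1.03 for *Fgf1*, 0.70 for *Fgf2*, 0.91 for *Fgf8*, 1.04 for *Fgf7*, 1.504 for *Fgf10*, 2.54 for *Fgf15* and 2.36 for *Fgf3*, and for *Fgf3* 5 of its 12 values were at the floor. Of the 27 pairs of a ligand with its 3 nearest genes, 7 were also found when genes were ranked by Pearson correlation. Among the nearest gene of each ligand this held only for *Socs3* and *Foxl2*, and not for *E2f1*.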

How the data were processed

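RNA of 5 *RBS* lesions, 4 control eyes and 3 Shh-MBs was measured on the nCounter panel for mouse PanCancer pathways. Per its methods the study compiled and normalized counts in nSolver with the nCounter Advanced Analysis software. The authors deposited normalized signal, linear and not on the log2 scale, from which background has been subtracted. The background setting and the reference genes are not given in the sources used here. No column was left without a sample.

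The step between neighboring low values was estimated in each sample, and total signal divided by the step was taken as depth (335351 to 716967 counts above background), so low signals rest on few counts. The precision of each mean is limited by 3 to 5 animals per group.

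Signals were analyzed as log2 of the signal plus 1, without a filter, with limma 3.58.1 in R 4.3.3 (lmFit and eBayes, two-sided), for each pair of groups with only their samples, and adjusted by Benjamini-Hochberg over all 770 genes with a threshold of 0.05. Steps were tested on simulated data with known changes. Python 3.11.15 with matplotlib 3.10.9 drew the figures.

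The 9 ligands, the gene lists and the tests were chosen with earlier results of these data known. Named by rule were the 9 ligands, other FGFs with a group mean above 20, all receptors, the 4 adaptors, feedback or target genes with the largest difference among those called and apart in *RBS* lesions against control eyes, the 3 genes nearest in profile to each ligand (not all printed), and panel genes next to a ligand. Those 4 were *Shc3*, *Dusp4*, *Sos1* and *Dusp5*. *Fgf17* and genes listed beside a count were named after their values were seen. Marker lists were summed per sample. All 9 ligands matched the reference table by symbol.

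Alternatives were the methods' Welch test with step-down Bonferroni (*p* from the *t* distribution, without permutations) or Benjamini-Hochberg adjustment, limma with trend and robust settings or on all 12 samples, median centering, quantile normalization, equal totals, a pseudocount of 5, low genes left out or values under 20 set to 20, the replicate number as a block, and each sample left out in turn.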

Additional observations from a re-analysis of the deposited data

Results flagged for a closer look

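A sample stood apart by Dixon's test in 3 of 36 combinations of 18 genes (the 9 ligands, 8 named pathway genes and *Ccnd1*) with the control eyes or the *RBS* lesions. Linear and log2 signals were both tested, and only *Fgf15* passed on both. With 2 scales, chance alone flags somewhat more than the 1 in 20 combinations of a single test. The genes were also chosen with earlier results of these data known, so the flags are given as a description. The signal of *Fgf15* in *RBS* lesion 5 was 74.6, while the other 4 lesions lay between 145 and 152, a gap of 0.93 of the group's range on the log2 scale. *RBS* lesion 5 also had the lowest *Fgf9* (41.6) and *Ccnd1* (1406) of the lesions and the highest *Dusp4* (2519) and *Shc3* (464). These genes were picked after their values were seen. For every gene some lesion must be lowest or highest, so nothing is read from them. *Fgf10* was 119 in control eye 4 and between 7.57 and 13.1 in the other 3 eyes, a gap of 0.95 of the range on the linear scale and of 0.812 on the log2 scale, where the limit is 0.829. *Fgfr4* was 30.0 in *RBS* lesion 1 and between 12.1 and 17.1 in the other 4 lesions, a gap of 0.72 of the range on the linear scale and of 0.624 on the log2 scale, where the limit is 0.71.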

How the results depend on the processing

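Calls are given in the order *RBS* lesions against control eyes, *RBS* lesions against Shh-MBs and Shh-MBs against control eyes. With the methods' t-test and step-down Bonferroni adjustment, 72, 80 and 36 genes were called in place of 394, 468 and 316 with limma, 3, 1 and 1 of the 22 pathway genes in place of 15, 15 and 11, and 0 of the 9 ligands in place of 7 between *RBS* lesions and Shh-MBs and 1 in place of 4 between Shh-MBs and control eyes. The same t-test with Benjamini-Hochberg adjustment called 3, 5 and 2 ligands beside 347, 380 and 217 of all 770 genes. Leaving out each sample in turn gave 350 to 392, 423 to 478 and 250 to 313 genes, 3 to 5, 6 to 8 and 4 to 5 ligands, and 13 to 14, 15 to 17 and 11 to 12 pathway genes. The call of *Fgf7* against control eyes was lost without *RBS* lesion 3, 4 or 5 or control eye 1, 2 or 3, and between *RBS* lesions and Shh-MBs it was lost without Shh-MB 2 or 3 or any 1 of the 5 lesions.

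Of the 22 pathway genes, 15 changed direction in 1 or more comparisons and alternatives, 4 of them where they had been called. With centring on the median these were *Sos1* (0.82 to -0.021) and *Dusp6* (0.38 to -0.47, adjusted *p* = 0.0170, and -0.21 with quantile normalization) in *RBS* lesions against Shh-MBs, and *Sos2* (-0.64 to 0.026) and *Spry1* (-0.62 to 0.042, and 0.031 with quantile normalization) in Shh-MBs against control eyes. Of named genes not called, *Fgfr4* in *RBS* lesions against control eyes moved from -0.20 to 0.16 with equal totals and 0.0065 with values under 20 set to 20, and in Shh-MBs against control eyes median centring took *Dusp4* from -0.66 to 0.0072 and *Fgfr3* from -0.45 to 0.21, or 0.069 with quantile normalization. Among ligands, 3 changed direction where they had not been called, *Fgf18* in *RBS* lesions against control eyes (-0.20 to 0.17, equal totals), and *Fgf2* (-0.66 to 0.0091, median centring) and *Fgf9* (-0.28 to 0.39, median centring, and 0.066, quantile normalization) in Shh-MBs against control eyes. The sign of *Fgf3* in *RBS* lesions against Shh-MBs is not read, since all 3 tumors were at the floor. The causes were not tested. Of 501 values of ligands, 44 moved by more than the spread between replicates. Signals of *Fgf2* and *Fgf8*, under 20 in each sample, are limited by depth.

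The replicate numbers did not pair the samples, since deviations of equally numbered samples correlated at -0.15 to 0.19. With them as a block, 301, 407 and 230 genes, 4, 6 and 4 ligands and 13, 15 and 9 pathway genes were called. Against control eyes *Fgf7* was lost and *Fgf1* gained in *RBS* lesions, and *Fgf7* was also lost against Shh-MBs.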
